A study of Mus musculus with 26 samples.

Results

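The mRNAs of 9 genes of the mTOR and Akt pathway (Mtor, Mlst8, Rptor, Rictor, Akt1, Akt2, Tsc1, Tsc2 and Rheb) were followed in oligodendrocyte progenitor cells (OPCs) and in the oligodendrocytes (OLs) made from them. They were taken by gene symbol. All 9 were listed, with 1 transcript each, among the 8177 transcripts listed for both cell types, and all 9 had a half-life in every replicate, as did 8112 transcripts.

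Cells of mouse strain 129S/SvEv were labelled for 24 h with 5-ethynyluridine (5-EU), an analogue of uridine to which biotin can be attached, and labelled RNA was captured and sequenced at 0, 1, 2, 4 and 6 h of a chase with uridine. OPCs (3 replicates) had been derived from epiblast stem cells and were kept in medium with bFGF and PDGFA. OLs (2 replicates, which match a pair of the OPC replicates, though the sources do not say which) came from OPCs passaged in growth medium without bFGF and then differentiated for 40 h before the label, in medium with noggin, IGF-1, cyclic AMP, NT3 and thyroid hormone. IGF-1 is a ligand of receptors that activate Akt, so differences by cell type and by medium cannot be told apart in these comparisons. Levels are FPKM (sequenced fragments relative to transcript length and to the fragments mapped), scaled by the authors to labelled spike-in RNA. The paper states that FPKM of every time point were scaled in this way, which includes 0 h. The listed 0 h values are written with other decimals than the later ones, and whether they carry the scale was not tested.

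mTOR is a protein kinase that works in a pair of complexes. In mTORC1 the subunit Raptor (Rptor) recruits substrates that raise translation and lipid synthesis, and in mTORC2 the subunit Rictor directs the kinase to Akt, while mLST8 (Mlst8) sits in both. Akt inhibits the complex of Tsc1 and Tsc2, which keeps the small GTPase Rheb in its inactive form, and active Rheb switches mTORC1 on. In the oligodendrocyte lineage this pathway is known for promoting differentiation and myelin synthesis.

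Of the oligodendrocyte markers, Mbp and Cnp were far higher in OLs at 0 h (log2 difference 9.27 and 4.54), and Mog, Mag, Mobp and Myrf were listed for OLs alone. The 5 OPC markers did not move together: Pdgfra, Sox6 and Lhfpl3 were higher in OLs (log2 difference 1.70, 1.02 and 0.93), while Cspg4 and Ptprz1 were at -0.53 and -0.46 and did not pass. Of the astrocyte markers, Gfap (6.86 and 8.12 FPKM) and Aldh1l1 (1.72 and 2.44 FPKM) were listed for OLs alone, whereas Slc1a3 and Aldoc were at -0.72 and -0.07 and did not pass. The lineage genes went both ways, with Sox10 (3.07) and Nkx2-2 (0.63) higher and Olig1 (-0.88) and Olig2 (-0.67) lower in OLs. The neuronal marker Tubb3 was at 0.60 and did not pass, and Syt1 was listed for OLs alone. The part of other cells in the results was not tested. In bulk samples, fewer cells of a type and less RNA per cell cannot be told apart. Read numbers are unknown. At 6 h, 15.7% to 21.6% of OPC transcripts and 0.790% to 4.08% of OL transcripts were listed at 0.

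Before the chase, Rictor was the member that differed most between the cell types. Rictor (ENSMUSG00000050310.9) lies on the plus strand of GRCm38 at chr15:6708383-6800401, and its transcript has 38 exons. Its level at 0 h was 4.22, 17.5 and 8.38 FPKM in OPC replicates 1, 2 and 3 and 50.5 and 51.1 FPKM in OL replicates 1 and 2. All OPC values lay below both OL values, and the OPC values spread more widely than those of any other member relative to their mean. The difference, OL minus OPC, was 2.42 ± 0.46 (SE) in log2(FPKM + 1), with an adjusted p of 0.00734 by limma over 8177 transcripts. Rptor, which defines the other complex, went the other way in values: 37.5, 31.5 and 39.5 FPKM in OPCs and 26.4 and 25.2 FPKM in OLs, a log2 difference of -0.47 ± 0.22 that did not pass (limma adjusted p = 0.135), with no overlap between the groups. It lies at chr11:119603149-119899407 (plus strand, 34 exons), and an antisense gene, Rptoros, overlaps an exon of it.

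The kinase itself and its shared subunit were at like levels in both cell types. Mtor (chr4:148448611-148557683, plus strand, 58 exons) was at 15.6, 19.4 and 22.7 FPKM in OPCs and 17.5 and 22.0 FPKM in OLs. Mlst8 (chr17:24473553-24479078, minus strand, 9 exons) was at 27.2, 22.6 and 22.4 FPKM in OPCs and 23.7 and 24.6 FPKM in OLs. The groups overlapped for both genes, with log2 differences of 0.04 ± 0.24 and 0.01 ± 0.21. An exon of Mlst8 overlaps Bricd5 on the opposite strand, and whether the counting used strand is not given in the sources used here.

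Akt1 and Tsc2 fell from OPCs to OLs. Akt1 (chr12:112653821-112674276, minus strand, 14 exons) was at 103, 87.5 and 95.8 FPKM in OPCs and 56.6 FPKM in each OL replicate, a log2 difference of -0.74 ± 0.21 (limma adjusted p = 0.0310). Tsc2 (chr17:24595937-24632629, minus strand, 40 exons) was at 27.2, 26.2 and 33.2 FPKM in OPCs and 17.5 and 17.3 FPKM in OLs, a log2 difference of -0.69 ± 0.22 (limma adjusted p = 0.0451). For both genes every OPC value was above both OL values. Akt2 (chr7:27605858-27639453, plus strand, 14 exons), the second Akt kinase in the set, was at 68.6, 41.9 and 55.7 FPKM in OPCs and 33.2 and 41.0 FPKM in OLs, and its log2 difference of -0.55 ± 0.27 did not pass (limma adjusted p = 0.153). Pkd1 overlaps an exon of Tsc2 on the opposite strand, and the annotation holds a processed pseudogene, Akt2-ps, whose reads could be shared with Akt2.

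Tsc1 and Rheb were higher in OLs in values only. Tsc1 (chr2:28641237-28691167, plus strand, 23 exons) was at 8.18, 8.29 and 8.88 FPKM in OPCs and 9.59 and 12.1 FPKM in OLs. Rheb (chr5:24802823-24842624, minus strand, 8 exons) was at 44.2, 58.5 and 54.6 FPKM in OPCs and 75.1 and 74.5 FPKM in OLs. Neither group of values overlapped the other, but the log2 differences of 0.32 ± 0.21 and 0.51 ± 0.22 did not pass (limma adjusted p = 0.290 and 0.115).

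**Figure D1:**
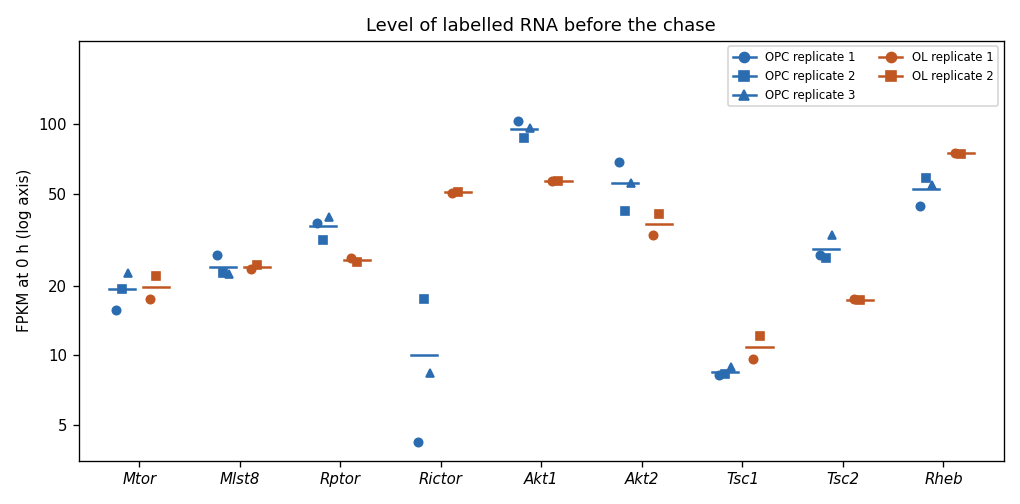
FPKM at 0 h of chase (log axis) for the 9 genes, with 1 point per replicate and a bar at the mean of each cell type (3 OPC and 2 OL replicates). Rictor goes from 4.22 to 17.5 FPKM in OPCs to about 51 FPKM in OLs, while Akt1 and Tsc2 are lower in both OL replicates than in any OPC replicate.

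In all, 3 of the 9 members passed the test of the 0 h level (1 higher and 2 lower in OLs), against 29.6% of all transcripts tested, and the 0 h groups did not overlap for 7 of 9 members, against 59.3% of all transcripts. The median difference of the members was 0.01 on the log2 scale, beside -0.01 over all transcripts. Without either OL replicate none of the 3 passed (limma adjusted p for Rictor = 0.0681 and 0.0599). With the replicate numbers as a block Rictor alone passed, with adjusted p-values of 0.122 for Akt1 and 0.220 for Tsc2 (limma). That fit pairs by number, which need not be the true match. OPC replicate 3 has no partner in it, so its differences are those of the fit without that replicate. Without OPC replicate 3, Rictor alone passed, with adjusted p-values of 0.117 for Akt1 and 0.184 for Tsc2 (limma). Tsc2 was also lost at a pseudocount of 0.1 (limma adjusted p = 0.0505).

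Ordered by mean FPKM, OPCs held Akt1 first (95.4 ± 7.73, SD, n = 3), then Akt2 (55.4 ± 13.4), Rheb (52.4 ± 7.35), Rptor (36.2 ± 4.13), Tsc2 (28.9 ± 3.80), Mlst8 (24.1 ± 2.71), Mtor (19.2 ± 3.56), Rictor (10.0 ± 6.79) and Tsc1 (8.45 ± 0.375). FPKM is a level per length, but here of RNA captured by its 5-EU label. Capture may differ between genes with their uridine content and turnover, which was not tested. The order is thus of captured RNA and not of mRNA amounts. Between neighbours in this order the ranges separated only at Akt1 over Akt2 and at Rheb over Rptor. In OLs the order was Rheb (74.8 ± 0.399, SD, n = 2), Akt1 (56.6 ± 0.00541), Rictor (50.8 ± 0.395), Akt2 (37.1 ± 5.49), Rptor (25.8 ± 0.820), Mlst8 (24.1 ± 0.664), Mtor (19.8 ± 3.18), Tsc2 (17.4 ± 0.139) and Tsc1 (10.8 ± 1.77). No neighbours overlapped there, although with 2 replicates each range is narrow. Rictor stood next to last in OPCs and above Akt2 in OLs.

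Rictor and Tsc1 were short-lived in both cell types. Rictor stood at 11.9%, 14.0% and 30.2% of its 0 h level after 2 h in OPC replicates 1, 2 and 3, against 33.1% and 45.9% for OL replicates 1 and 2. By 6 h its level stood at 11.2%, 7.39% and 5.31% in OPCs and at 17.3% and 12.9% in OLs. Its half-life was 1.49, 0.760 and 1.28 h in OPCs and 1.25 and 1.78 h in OLs, overlapping between the groups. Within its replicate, this placed Rictor at the 26.3, 1.18 and 11.6 percentile of half-lives in OPCs and at the 7.30 and 6.85 percentile in OLs. The 0.760 h of OPC replicate 2 was held, within 0.0001 h, by 71 transcripts of that replicate (0.836%), so it may reflect the fit. At 4 h all 3 OPC values of Rictor were under 1 FPKM (0.659, 0.424 and 0.968).

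Tsc1 was at 4.81%, 4.41% and 11.3% of its 0 h level at 6 h in OPCs and at 21.5% and 16.8% in OLs. Its half-life was 1.14, 1.95 and 1.29 h in OPCs and 1.55 and 2.35 h in OLs. The half-lives overlapped between the cell types, and the 6 h levels did not. Tsc2, whose protein binds Tsc1 in the inhibitor complex, was long-lived. Its half-life was at the 6 h ceiling in all 5 replicates, and its slope over the chase did not pass the test in OPCs (-0.07 ± 0.06 log2 per h, limma adjusted p = 0.243) or in OLs (-0.03 ± 0.06, limma adjusted p = 0.672). At 6 h Tsc2 was at 26.8%, 93.1% and 67.9% in OPCs and 84.7% and 59.1% in OLs, with OPC replicate 1 far below the others after 122% at 4 h in the same replicate.

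The ratio of Tsc1 to Tsc2 is taken within a library, so the spike-in factor cancels. At 0 h it was 0.301, 0.316 and 0.267 in OPCs and 0.547 and 0.698 in OLs, and at 6 h it was 0.0540, 0.0150 and 0.0447 in OPCs and 0.139 and 0.199 in OLs. The ratio was lower at 6 h than at 0 h in all 5 replicates, and the OL values lay above the OPC values at both times. The OPC ratios at 6 h rest on low Tsc1 levels (0.393, 0.366 and 1.01 FPKM) and, in OPC replicate 1, on the low Tsc2 value. The difference in this ratio between the cell types was not tested. The ratio of Rictor to Rptor was 0.113, 0.555 and 0.212 at 0 h in OPCs and 1.91 and 2.02 in OLs. At 6 h it was 0.203, 0.827 and 0.0589 in OPCs and 0.706 and 0.746 in OLs, where the groups overlapped.

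**Figure D2:**
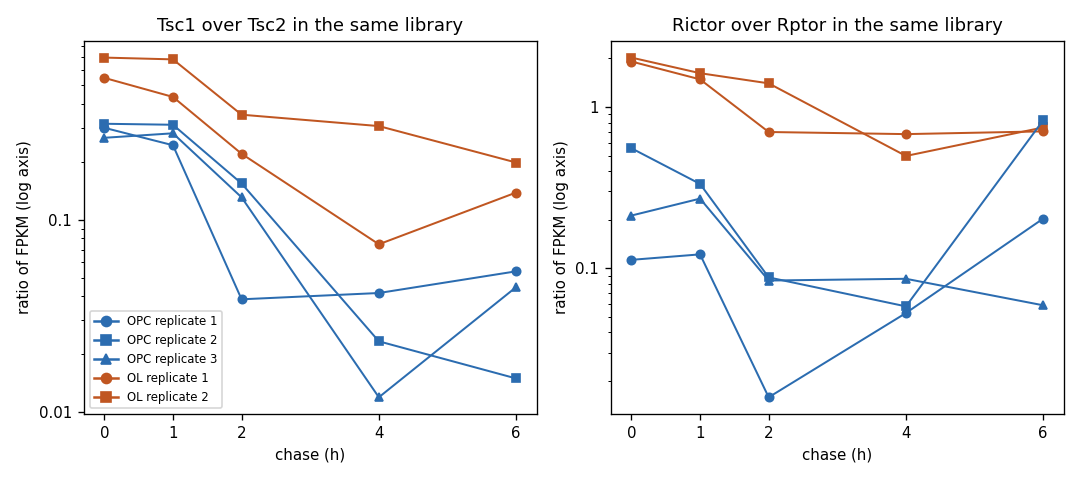
Ratio of FPKM in the same library (log axis) against hours of chase, for Tsc1 over Tsc2 and for Rictor over Rptor, with 1 line per replicate. Tsc1 over Tsc2 falls from 0.267 to 0.316 at 0 h to 0.0150 to 0.0540 at 6 h in OPCs and stays higher in OLs, and Rictor over Rptor is close to 2 in OLs at 0 h.

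Mtor, Rptor and Mlst8 lost most of their labelled RNA in OPCs and kept more of it in OLs. Mtor was at 12%, 10.5% and 6.53% of its 0 h level at 6 h in OPC replicates 1, 2 and 3 and at 65.9% and 35.0% in OL replicates 1 and 2. Rptor was at 6.22%, 4.95% and 19.1% in OPCs and at 46.9% and 35.0% in OLs. Mlst8 was listed at 0 in OPC replicates 1 and 2, was at 13.8% in OPC replicate 3, and was at 32.6% and 17.5% in OLs. For all 3 genes every OL value lay above every OPC value. The 6 h groups were apart in this direction for 7 of 9 members, the exceptions being Akt1 and Tsc2, and for 48.9% of all transcripts.

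**Figure D3:**
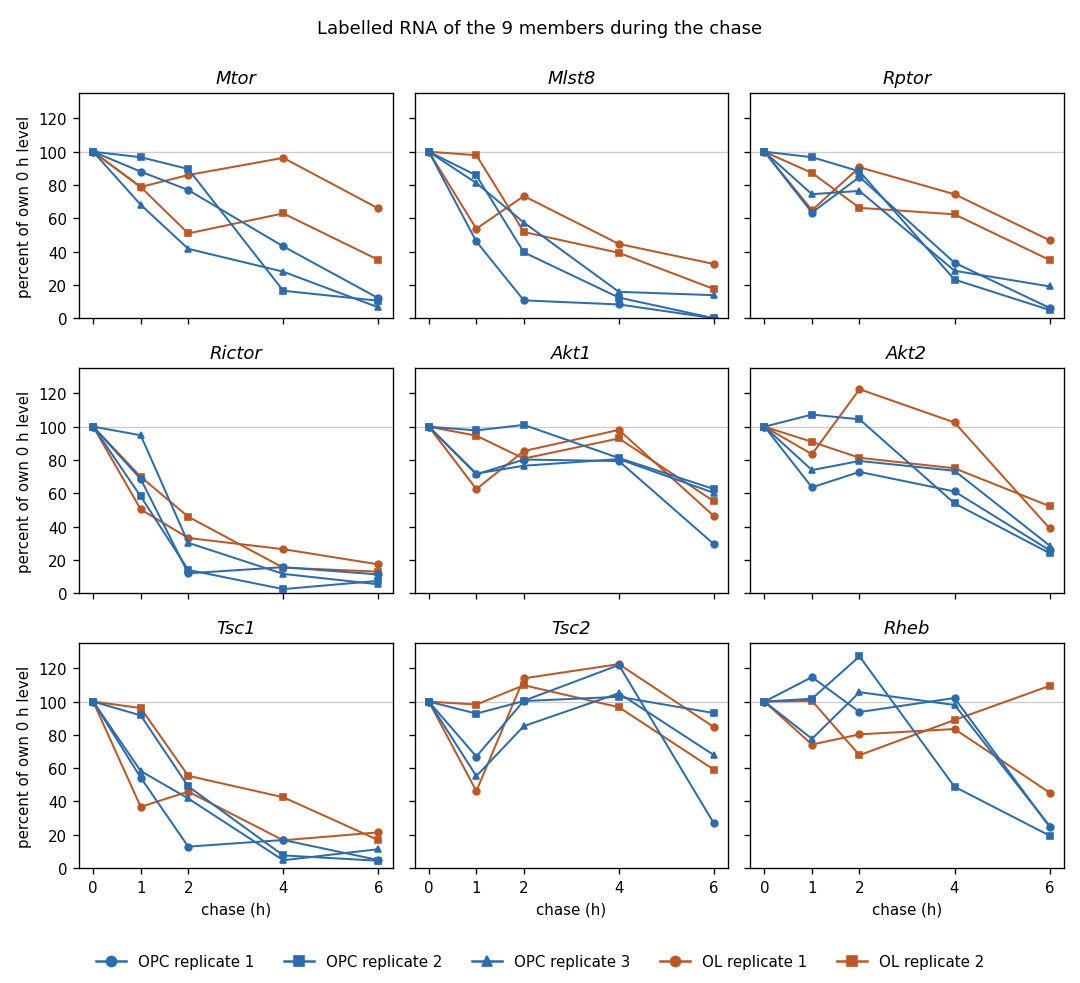
Spike-in-scaled level as a percentage of the replicate's own 0 h level against hours of chase, with 1 panel per gene and 1 line per replicate. Mtor, Mlst8 and Rptor fall to 19.1% or less by 6 h in OPCs and lie higher in OLs, Rictor and Tsc1 fall early in both, and Akt1 and Tsc2 overlap between the cell types.

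In half-lives, Mtor was at 3.30, 1.96 and 1.81 h in OPCs and at 6 h (the ceiling) and 3.97 h in OLs. Rptor was at 2.52, 1.96 and 2.51 h in OPCs and at the ceiling and 3.96 h in OLs. Mlst8 was at 0.895, 1.5 and 2.1 h in OPCs and at 3.71 and 2.39 h in OLs. The groups did not overlap for these 3 genes (nor, with OLs higher, for 35.9% of all transcripts). Their log2 differences were 1.10 ± 0.39, 1.07 ± 0.25 and 1.08 ± 0.48, and none passed (limma adjusted p = 0.228, 0.129 and 0.324). Median centring reduced them to 0.20, 0.17 and 0.17, while it moved the median difference over all transcripts from 0.37 to -0.53. Refitting without the 6 h libraries gave 0.14 for Mtor, 0.78 for Rptor and 1.09 for Mlst8. Akt1 was at the ceiling in all 5 replicates, Akt2 was at 4.37 and 4.49 h and the ceiling in OPCs and at the ceiling in both OL replicates, and Rheb was below the ceiling only in OPC replicate 2, at 3.87 h. None of the 9 members passed the half-life test by limma (1 member, Rptor, had an unadjusted p under 0.05, at 0.0179), against 3.54% of all transcripts. The median log2 difference was 0.40 over the members and 0.37 over all transcripts. Leaving out OPC replicate 3 let 1 member pass, Akt2, whose OPC values were then 4.37 and 4.49 h, with both OL values at the ceiling.

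The half-life of 1.96 h given to both Mtor and Rptor in OPC replicate 2 was shared, within 0.0001 h, by 25.6% of the transcripts of that replicate. A single exponential fitted by least absolute deviations takes exactly the value 1.95713 h whenever the 1 and 2 h points lie above the curve and the 4 and 6 h points below it, whatever their distance, so this half-life describes the shape of the course and not its rate. In OPC replicate 2, Mtor was at 96.7% at 1 h, 89.6% at 2 h, 16.5% at 4 h and 10.5% at 6 h. The replicate as a whole took this course, with the median transcript at 95.3%, 83.3%, 20.4% and 11%, whereas at 4 h the median was 39.0% in OPC replicate 1 and 37.0% in OPC replicate 3. OPC replicates 1 and 3 held this value for 2.14% and 7.43% of their transcripts, and OL replicates 1 and 2 for 0.474% and 1.38%.

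The slope of log2(FPKM + 1) over the chase has no ceiling. Within a cell type a common slope was fitted over all its libraries, so its p-values do not measure how slopes vary between replicates. In OPCs 8 of 9 members fell by limma, with slopes from -0.14 (Akt1) to -0.67 (Mlst8) log2 per h, and Tsc2 did not pass, while 81.7% of all OPC transcripts fell. In OLs 6 of 9 members fell, with slopes from -0.13 (Mtor) to -0.43 (Rictor), against 68.4% of all OL transcripts. Akt1 (-0.11, limma adjusted p = 0.0532), Tsc2 and Rheb (-0.06, limma adjusted p = 0.301) did not pass in OLs. In OPCs Akt1 did not pass without OPC replicate 1 (limma adjusted p = 0.0544), and neither Akt1 nor Rheb passed without the 6 h libraries (-0.0586 and -0.0792 log2 per h, limma adjusted p = 0.367 and 0.344). Without OL replicate 2, only Rictor, Mlst8 and Tsc1 passed in OLs. Centred on the median transcript of each library, Mlst8 alone still fell in OPCs and Rictor alone in OLs.

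Slopes were shallower in OLs for Mtor, Rptor, Mlst8 and Rheb. The replicate slopes of Mtor were -0.42, -0.53 and -0.51 log2 per h in OPCs and -0.06 and -0.20 in OLs, a difference of 0.36 ± 0.08 (limma adjusted p = 0.0119). Rptor had slopes of -0.56, -0.65 and -0.39 in OPCs and -0.13 and -0.22 in OLs, a difference of 0.36 ± 0.09 (limma adjusted p = 0.0165). Mlst8 had slopes of -0.75, -0.78 and -0.47 in OPCs and -0.22 and -0.38 in OLs, a difference of 0.37 ± 0.10 (limma adjusted p = 0.0241). Each OL slope was shallower than each OPC slope for these 3 genes and for Akt2, Tsc1 and Rheb, as for 50.9% of all transcripts. Rheb had slopes of -0.29, -0.40 and -0.26 in OPCs and -0.14 and 0.02 in OLs, a difference of 0.26 ± 0.08 (limma adjusted p = 0.0448). Rictor had slopes of -0.29, -0.55 and -0.49 in OPCs and -0.36 and -0.50 in OLs, overlapping between the groups, and a difference of 0.02 ± 0.09 that did not pass (limma adjusted p = 0.914). The added 1 FPKM flattens low values, and with 0.1 FPKM in its place the Rictor difference was 0.18 (limma adjusted p = 0.300). Differences for Akt1, Akt2, Tsc1 and Tsc2 lay between 0.03 and 0.14 log2 per h and did not pass.

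These 4 of 9 calls, all in 1 direction, stand beside 23.8% of all transcripts, of which 1937 were shallower and 7 steeper in OLs. The members' median difference, 0.14 log2 per h, was that of all transcripts, 0.14. Centring each library on its median transcript moved the median difference over all transcripts from 0.14 to -0.07, after which Mtor, Rptor and Mlst8 remained at 0.15, 0.15 and 0.15 and Rheb at 0.05, and no member passed (limma adjusted p = 0.197, 0.198, 0.237 and 0.708). Under this scaling Rictor, Akt1, Akt2, Tsc1 and Tsc2 turned to negative values. Without OL replicate 1 the differences of Mtor, Rptor, Mlst8 and Rheb were 0.29, 0.32, 0.28 and 0.34, and without OL replicate 2 they were 0.43, 0.40, 0.45 and 0.18. None passed, but with 1 OL replicate left only 88 and 0 of all transcripts did, so these lost calls say little about the members. A pseudocount of 0.1 also removed all 4 calls, although the differences were no smaller, at 0.43 for Mtor, 0.41 for Rptor, 0.69 for Mlst8 and 0.27 for Rheb (limma adjusted p = 0.0520, 0.0882, 0.124 and 0.122). In addition, leaving out OPC replicate 2 or 3 removed the call of Rheb (limma adjusted p = 0.0841 and 0.0559). Without the 6 h libraries only Mlst8 passed, and the Rheb difference fell to 0.03.

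**Figure D4:**
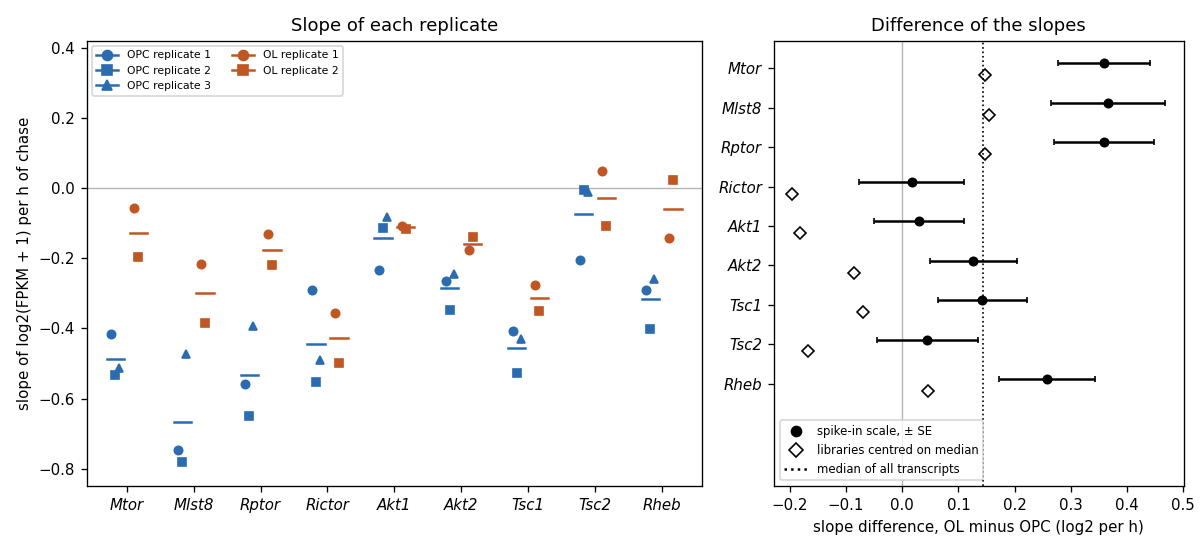
Left, slope of log2(FPKM + 1) per hour of chase for each replicate, with a bar at the mean of each cell type. Right, difference of the slopes, OL minus OPC, with its SE on the spike-in scale (filled circles) and after centring each library on its median transcript (open diamonds), and the median over all 8177 transcripts as a dotted line at 0.14. Mtor, Mlst8 and Rptor lie near 0.36 on the spike-in scale and near 0.15 after centring.

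A wider list of the pathway held 75 further genes that were tested in both cell types. At 0 h, 13 of them were higher and 8 lower in OLs (28.0% of the 75, against the 29.6% over all transcripts). Of 8 receptors and adaptors 4 passed, all higher in OLs, and the other 4 were lower in values without passing, among them Fgfr1 (-0.80 ± 0.27, limma adjusted p = 0.0559) and Irs2 (-0.72 ± 0.25, limma adjusted p = 0.0592). Those that rose were Fgfr2, a receptor for fibroblast growth factors, by 2.28 ± 0.23, Pdgfra by 1.70 ± 0.37, Grb10, an adaptor that dampens insulin signalling, by 1.2 ± 0.36, and Irs1, a docking protein of the insulin and IGF-1 receptors, by 1.01 ± 0.22 (log2, ± SE). Pik3r3, a regulatory subunit of phosphoinositide 3-kinase, was at 18.8, 21.3 and 23.2 FPKM in OPCs and 207 and 150 FPKM in OLs, a log2 difference of 3.01 ± 0.24 (limma adjusted p = 0.000207). The kinase Sgk1, a substrate of mTORC2, rose by 2.73 ± 0.26. Fnip1, a partner of folliculin in amino acid sensing, rose by 2.25 ± 0.42, and Tbc1d7, a further subunit of the Tsc complex, by 1.33 ± 0.28.

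Among the targets, the translation inhibitor Pdcd4 rose by 3.06 ± 0.28 and Eif4ebp1, which encodes the repressor 4E-BP1 of cap-dependent translation, fell from 34.0, 27.8 and 33.0 FPKM in OPCs to 4.05 and 8.39 FPKM in OLs (log2 difference -2.24 ± 0.29, limma adjusted p = 0.00136). Larp1, which binds the mRNAs of ribosomal proteins, changed by -1.09 ± 0.22 and Srebf1, a regulator of lipid synthesis, by -1.07 ± 0.29. In the AMPK branch, Strada changed by -1.14 ± 0.34.

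For the chase slope, 22 of the 75 were shallower and 0 steeper in OLs, or 29.3% against the 23.8% over all transcripts. By list, members included, 6 of 23 genes of the Rag and Ragulator group, 6 of 18 targets, 5 of 10 genes of the AMPK branch, 2 of 8 receptors and adaptors, 1 of 12 Akt kinases and their regulators, 1 of 4 genes of the TSC and Rheb list and 5 of 9 genes of the mTOR complexes were shallower. The last are Mtor, Rptor and Mlst8 with Telo2 and Tti1, which help to assemble mTOR. The differences were 0.52 ± 0.08 log2 per h for Fgfr1, 0.50 ± 0.08 for the AMPK subunit Prkab1, 0.49 ± 0.08 for the Akt phosphatase Phlpp1, 0.48 ± 0.09 for the leucine sensor Sesn2, 0.45 ± 0.09 for Srebf1 and 0.43 ± 0.08 for Larp1, followed by Lamtor3 (0.42 ± 0.08), Maf1 (0.39 ± 0.09) and Rragc (0.38 ± 0.09). After median centring, Fgfr1, Prkab1, Phlpp1, Sesn2 and Srebf1 were the named genes that still passed. For half-lives 3 of the 75 passed (4.00%, against the 3.54% over all transcripts), all longer in OLs: Srebf1 (1.68 ± 0.10 log2), Phlpp1 (1.62 ± 0.01) and Fgfr1 (1.29 ± 0.02). All 3 OPC values of Phlpp1 were the shared 1.96 h and both OL values the ceiling, so the fit left no spread within either group. Fgfr1 was at 2.43, 2.43 and 2.50 h in OPCs and at the ceiling in both OL replicates, which leaves its OL values no spread either. After median centring 0 transcripts were called longer in OLs, and with the replicate block 0 of 8112 passed. The 3 half-life calls thus held under neither.

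Over the 25 libraries, the course of each member was set against those of all shared transcripts by the root mean square difference of log2(FPKM + 1), after centring each library on its median and each transcript on its mean. The nearest were Gars for Akt1 (0.143), Srsf5 for Rheb (0.197), Tln1 for Tsc2 (0.214), Aars for Akt2 (0.223), Actr1a for Rptor (0.238), Htt for Mtor (0.245), Arhgap31 for Tsc1 (0.260), Cpeb2 for Rictor (0.331) and Arhgef2 for Mlst8 (0.362). No member was the nearest to another, and the closest pair of members was Akt1 and Tsc2 (0.298).

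The AU-rich pentamer ATTTA, known as a core of elements in 3′ untranslated regions (3′ UTRs) that recruit decay factors, was counted on the sense strand. It occurred 11 times in the 4165 bases of the Rictor 3′ UTR (2.64 per kb) and 4 times in the 3994 bases of that of Tsc1. Of 682 transcripts with a 3′ UTR within 20% of the length of Rictor's, 22.0% held at least 11 (median 7), and of 736 near that of Tsc1, 78.5% held at least 4 (median 6). Mtor, Akt2 and Tsc2 held none, Akt1 held 2, and Rptor, Mlst8 and Rheb held 1 each. Over all 8166 shared transcripts with a usable annotation, 70.3% held at least 1. The longer form TATTTAT, which contains ATTTA, was found in 30.2% of them and in 3 members (Rictor, Tsc1 and Rptor), whose sites are printed to show the motif in its sequence, from the GENCODE transcripts of GRCm38 with the motif in capitals, 30 bases each.
Rictor site 1 (chr15:6798841-6798870, plus strand): gagaaatttagTATTTATaagaaaataggc
Rictor site 2 (chr15:6800169-6800198, plus strand): gaaagaaaaagTATTTATatattttcctta
Tsc1 (chr2:28687827-28687856, plus strand): ccactacctctTATTTATttggtatttgct
Rptor (chr11:119899290-119899319, plus strand): gcgcatttctcTATTTATtttaccaaaatg
Of 3′ UTRs within 20% of the length, 61.3%, 61.7% and 39.7% held TATTTAT for Rictor, Tsc1 and Rptor.

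The study asked how codon content relates to decay, among others for the codons for phenylalanine (TTT and TTC) and lysine (AAA and AAG). Rictor had 33 TTT and 22 TTC codons, and AAA in 53.1% of its Lys codons (51 AAA, 45 AAG), at the 77.4 and 81.9 percentile of shared transcripts. Tsc1, which like Rictor was short-lived in both cell types, lay near the middle, with TTT in 44.0% and AAA in 37.3%, at the 48.2 and 50.2 percentile. Akt1 was low, with TTT in 22.2% and AAA in 8.82%, at the 12.5 and 4.74 percentile. Akt2 had TTT in 26.9% and AAA in 29.0%, and Tsc2 had TTT in 33.9% and AAA in 17.1%. Rheb had TTT in 85.7% of its Phe codons (6 TTT, 1 TTC) and AAA in 33.3% of its Lys codons. Mtor, Rptor and Mlst8 had TTT in 48.8%, 36.2% and 28.6% and AAA in 27.7%, 26.4% and 25%. The Akt kinases show how the same protein stretch is written with other codons. Of the 142 stretches of 10 codons that encode identical residues in both, the stretch below was taken for its Phe and Lys codons that differ, the first Lys codon and the Phe codon. Capitals mark all 4 Phe and Lys codons, and the other two are the same in both genes.
Akt1 (chr12:112658624-112658653, minus strand, from codon 154): AAGctactgggcAAGggcaccTTTgggAAG
Akt2 (chr7:27629320-27629349, plus strand, from codon 156): AAActcctcggcAAGggcaccTTCggcAAG
The stretches differ at 5 of 30 bases. Both kinases had half-lives of 4.37 h or longer in every replicate.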

How the data were processed

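The authors trimmed adapters, aligned reads to GRCm38 with HISAT2 2.1.0, and tabulated FPKM with StringTie 1.3.5 for canonical coding transcripts. The deposited FPKM were scaled by the authors to the spike-in reads, so a library has 1 factor and an error in it moves all transcripts together. The paper gives this scaling for every time point, and whether the listed 0 h values carry it was not tested. Median centring removes any such factor. The deposited half-lives, in hours, are least absolute deviations fits of a single exponential with a ceiling of 6 h, listed just above 6 h and set here to 6 h. The OPC control without biotin was not analysed here. Groups were taken from the sample titles.

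Tests were fitted in R 4.3.3 with limma 3.58.1 on log2(FPKM + 1), on log2 half-life, and on the chase slope (replicate intercepts within a cell type, 1 slope per replicate between cell types). P-values were two-sided and adjusted by Benjamini-Hochberg over all transcripts of a comparison, with a threshold of 0.05. The functions were tested on simulated data. Members and gene lists were chosen with earlier results of these data known. All 9 members were named, with other pathway genes past the threshold, at most 12 per comparison by size, genes a sentence needed for their role (Irs1, Irs2, Fgfr1, Telo2, Tti1), and 1 transcript of like pattern per member. Coordinates and sequences were read from GENCODE M21 on GRCm38, the build of the authors' M9 annotation, and 10089 of 10104 transcripts matched with a usable coding sequence. Read depth is unknown, so no counting error is given. Replicates are taken as the labels number them. P-values of the main tests between cell types measure the spread between these samples. Those of slopes within a cell type measure the scatter of libraries about a common slope. They treat the libraries of a chase as independent and do not measure how slopes vary between replicates.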

Additional observations from a re-analysis of the deposited data

Results flagged for a closer look

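The slope of the chase differed between OLs and OPCs for 4 of 9 members by the test of the difference itself, beside 23.8% of all transcripts. The median difference was 0.14 log2 per h over the members and over all transcripts. The difference, OL minus OPC in log2 per h, was 0.36 for Mtor, 0.359 for Rptor, 0.366 for Mlst8 and 0.257 for Rheb (limma, 3 against 2 replicates). With each library centred on its median transcript these became 0.15, 0.15, 0.15 and 0.05, and none passed. Groups of 2 or 3 samples are too small to test for a sample that lies apart.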

How the results depend on the processing

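Pseudocount, filter, centring, the 6 h libraries, replicate pairing and single replicates were varied, and slopes from 1 h onward and a refit of half-lives were added after seeing the data. Over the members, 350 of 439 alternative values kept direction and side of the threshold, 50 lost a call, 1 gained one and 38 turned sign. Of 280 such values for the other pathway genes named, 77 lost a call and none turned sign. The kept values include the half-life differences of Akt1 and Tsc2, which were 0 and so had no direction, and which median centring moved to -0.90 each (limma adjusted p = 0.0509). All their half-lives were at the ceiling, so this shift is that of the replicate medians and says nothing of these genes. Both OL values of Akt2 and of Rheb were at the ceiling too. The causes of the other changes were not tested. Median centring left 1186 transcripts and 1 member falling in OPCs, 1345 and 1 in OLs, and for the slope difference 1011 transcripts (199 shallower, 812 steeper in OLs) and 0 members. It turned the slope in OPCs for Akt1 (0.30), Akt2 (0.15), Tsc2 (0.37) and Rheb (0.12), and in OLs for Mtor (0.11), Rptor (0.0595), Akt1 (0.12), Akt2 (0.0760), Tsc2 (0.21) and Rheb (0.18). It turned the slope difference for Rictor (-0.20), Akt1 (-0.18), Akt2 (-0.0857), Tsc1 (-0.0698) and Tsc2 (-0.17), the half-life difference for Rictor (-0.50), Akt2 (-0.61), Tsc1 (-0.47) and Rheb (-0.69), and the 0 h difference for Mlst8 (-0.0227). Half-life calls numbered 287, and 1 after centring, 23 without the 6 h libraries and 600 in hours. Without the 6 h libraries 3 members fell in OLs, Tsc2 had slopes of 0.0733 (OPCs) and 0.0792 (OLs) and Akt1 of 0.0074 (OLs), and the slope difference had 1240 calls and 1 member. It had 569 and 0 with a pseudocount of 0.1, and 831 and 2 from 1 h onward. With transcripts above 0 in every library, 4188 fell in OPCs.

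Replicate numbers are shared between the cell types, but same-numbered samples did not deviate together (r of 0.0589 and 0.0102 for 0 h levels, -0.00162 and -0.105 for half-lives, -0.0258 and -0.101 for slopes). With the replicate block, 1 member, Rictor, passed at 0 h (Mlst8 at -0.0370), 0 half-lives passed, and the slope difference had 2286 calls and 4 members (Rictor at -0.0062). OPC replicate 3 has no partner in this block, so it did not inform these differences.

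Leaving out single replicates gave 896 to 2605 calls and 0 to 3 members at 0 h (Mtor -0.11 to 0.20, Mlst8 -0.0370 to 0.0967), 167 to 236 and 0 to 1 for half-lives, 3 to 6 members falling in OLs (Rheb -0.14 to 0.0226, Tsc2 -0.11 to 0.0498), and 0 to 2209 calls and 0 to 4 members for the slope difference (Akt1 -0.0142 to 0.0609, Tsc2 -0.0340 to 0.12, Rictor -0.0539 to 0.0930). Where 1 OL replicate was left, it was taken to vary like the OPCs. Depth is unknown, so low late values carry no counting error.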
